A study of Mus musculus with 2 samples.

Results

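The genes described here are 10 genes of the Notch pathway in the developing mouse limb: the receptors Notch1, Notch2, Notch3 and Notch4, the ligands Jag1, Jag2, Dll1 and Dll4, and the target genes Hes1 and Hey1. They were chosen by name, and all 10 had a row in both gene tables, out of 43346 Ensembl genes. The study holds 1 group, healthy limb tissue of the B6NCrl strain at embryonic day 12.5, with 2 biological replicates and no second condition. Limbs of 88 embryos were pooled for replicate 1 and those of 68 for replicate 2, males and females mixed in each. Each library was made from 10 ng of total RNA longer than 200 nt with spike-in RNAs added. A pool averages over embryos, over cell types and, since no limb position is labelled, over the parts of the limb.

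Notch receptors are single-pass membrane proteins that are cut when a ligand of the Jagged or Delta-like family on a neighbouring cell binds them. The freed intracellular part enters the nucleus, joins the DNA-binding protein RBPJ and switches on target genes, of which the HES and HEY transcriptional repressors are the best known. In the limb bud the pathway is known from the vessels, the apical ectodermal ridge, the muscle precursors and the cartilage precursors, where these members are used in different combinations.

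The libraries held 29810026 expected counts in replicate 1 and 29938721 in replicate 2, where an expected count is an estimate that need not be whole. Spike-ins took 3.28% of them in replicate 1 and 2.30% in replicate 2. The markers of limb mesenchyme were present: all 8 listed genes reached 1 TPM, the deposited level per length, in each library, between Msx1 at 380 and 411 TPM and Twist2 at 41.5 and 38.2 TPM. Endothelial markers were also present, with all 13 at or above 1 TPM, led by Egfl7 at 67.6 and 65.4 TPM. In such bulk tissue, fewer cells of a type and less RNA per cell cannot be told apart. Unless stated otherwise, paired values below are those of replicate 1 and then replicate 2.

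All 10 members reached 1 TPM in both libraries, where 33.5% of the 43346 Ensembl genes did. Their summed expected counts ranged from 574 for Dll1 to 12289 for Notch2. The lowest member by mean TPM, Jag2, lay above 73.0% of Ensembl genes and the highest, Hes1, above 93.4%. On this scale the 2 targets were the highest members and 3 of the 4 ligands were among the 4 lowest.

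Among the receptors, Notch2 led. Notch2 (ENSMUSG00000027878.10, chr3:98013527-98150361, plus strand), the widely expressed paralogue of Notch1, had 33.49 TPM in replicate 1 and 29.34 TPM in replicate 2 (mean 31.4 ± 2.93, SD, n = 2). Notch3 (ENSMUSG00000038146.7, chr17:32120820-32166852, minus strand), known from smooth muscle and pericytes of vessels, had 19.31 and 17.52 TPM (18.4 ± 1.27, SD, n = 2). Notch1 (ENSMUSG00000026923.11, chr2:26457903-26516663, minus strand), required in arteries, ectoderm and many progenitor cells, had 11.52 and 11.55 TPM. The 3 ranges did not overlap. Notch4 (ENSMUSG00000015468.10, chr17:34564268-34588503, plus strand), largely restricted to endothelium, was the lowest receptor at 5.16 and 4.16 TPM. Notch2 made up 47.5% ± 0.926 of the summed receptor level (SD, n = 2), Notch3 27.9%, Notch1 17.5% and Notch4 7.04%. Notch2 exceeded Notch3 by a log2 ratio of 0.77 ± 0.04 and Notch3 exceeded Notch4 by 1.99 ± 0.12, with the same direction in both libraries (log2 of TPM ratios, SD, n = 2). The ratio of Notch3 over Notch4 depended on the estimate, at 1.38 by the deposited posterior mean, 2.83 by the leading transcript of each gene and 3.04 without length scaling.

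Among the ligands, Jag1 led. Jag1 (ENSMUSG00000027276.7, chr2:137081456-137116644, minus strand), the Jagged ligand whose loss affects vessels and skeleton, had 21.83 and 19.70 TPM (20.8 ± 1.51, SD, n = 2). Jag2 (ENSMUSG00000002799.5, chr12:112907819-112929776, minus strand), the ligand of the apical ectodermal ridge whose loss fuses digits in mice, had 4.25 and 3.83 TPM. Jag1 stood above Jag2 by a log2 ratio of 2.36 in each library, about 5.14-fold. Dll1 (ENSMUSG00000014773.9, chr17:15367354-15376872, minus strand), which acts in somites, muscle precursors and arteries, had 5.51 and 5.95 TPM. Dll4 (ENSMUSG00000027314.6, chr2:119325784-119335962, plus strand), the ligand of arterial and sprouting endothelium, had 3.98 and 4.43 TPM. Jag1 made up 59.7% ± 2.32 of the summed ligand level (SD, n = 2), Dll1 16.5%, Dll4 12.1% and Jag2 11.6%.

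The summed receptor level was 69.5 and 62.6 TPM and the summed ligand level 35.6 and 33.9 TPM, a log2 ratio of receptors over ligands of 0.92 ± 0.06 (SD, n = 2). The Jagged ligands together exceeded the Delta-like ligands by a log2 ratio of 1.46 in replicate 1 and 1.18 in replicate 2. Both ratios had the same direction in both libraries, and without length scaling they were 1.92 and, for the Jagged over the Delta-like ligands, 2.05. They compare RNA levels per length and say nothing of protein or of which cells hold each gene.

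By gene-level TPM the targets were higher than the receptors and ligands. Without length scaling they were not: Notch2, Notch3, Jag1 and Notch1 then stood above both, and by leading transcript Hey1 overlapped Notch2. Hes1 (ENSMUSG00000022528.7, chr16:30064384-30067796, plus strand), a repressor that many pathways besides Notch also induce, had 61.65 and 64.61 TPM (63.1 ± 2.09, SD, n = 2). Hey1 (ENSMUSG00000040289.4, chr3:8663359-8667256, minus strand), a repressor known from arterial endothelium and muscle and bone precursors, had 36.09 and 35.07 TPM (35.6 ± 0.721, SD, n = 2). Hes1 exceeded Hey1 by a log2 ratio of 0.83 ± 0.08 in TPM (SD, n = 2). Their expected counts were close, at 1524 and 1563 for Hes1 and 1496 and 1445 for Hey1, and the log2 ratio of counts scaled to library size, without length scaling, was 0.07.

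In order of mean TPM the members ran Hes1, Hey1, Notch2, Jag1, Notch3, Notch1, Dll1, Notch4, Dll4 and Jag2. With 2 libraries an exact sign-flip test cannot go below p = 0.5, so neighbours were compared by whether their values overlapped. Notch4 and Dll4 overlapped, and so did Dll4 and Jag2. The other 7 neighbouring pairs did not overlap. Of these, Jag1 had a lowest value of 19.70 TPM and Notch3 a highest of 19.31 TPM, and Dll1 had a lowest value of 5.51 TPM and Notch4 a highest of 5.16 TPM. Jag1 and Notch3 did overlap once TPM was rescaled over Ensembl genes alone, leaving the spike-ins out.

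**Figure D1:**
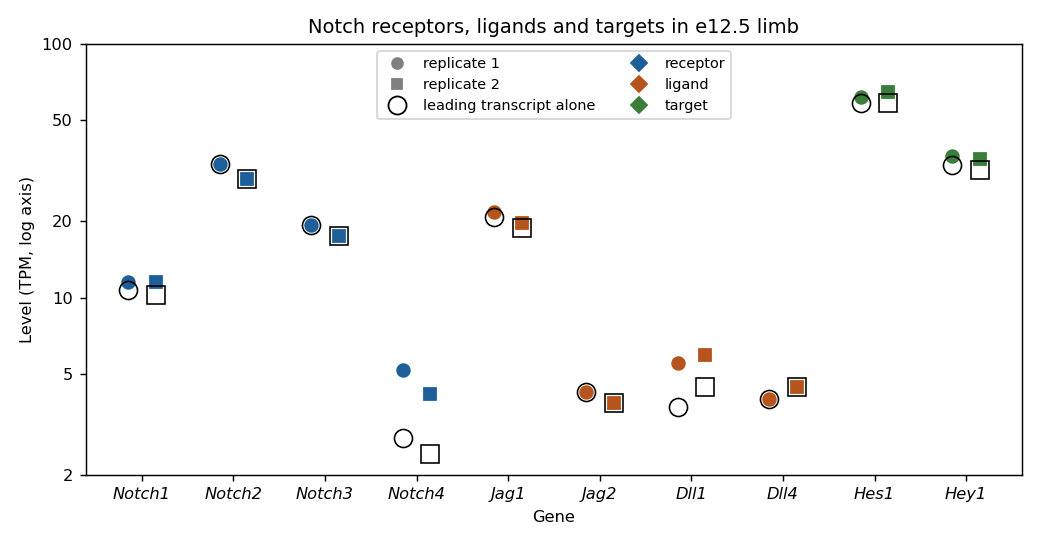
Level of each gene in TPM on a log axis, with 1 coloured point per library (circles replicate 1, squares replicate 2) and black outlines for the leading transcript alone. Hes1 lies above 60 TPM in both libraries, Dll4 and Jag2 lie near 4 TPM, and the outlines fall clearly below the points only for Notch4 and Dll1.

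The members differed in how many transcripts carried their level. The tables listed 44 transcripts for the 10 genes, of which 16 were at 0 in both libraries and 28 were above 0 in at least 1. Notch2, Notch3 and Jag2 each had a single transcript. The leading transcript, a protein-coding one for every member, held at least 90% of the gene's level in both libraries in 7 members. The other 3 were Notch1, at 93.3% and 89.0%, Dll1, at 67.3% and 74.3%, and Notch4, at 54.1% and 57.9%. Counted in reads the picture was different: the leading transcript held 94.4% and 94.5% of the expected counts of Notch4 and 91.6% and 93.9% of those of Dll1.

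**Figure D2:**
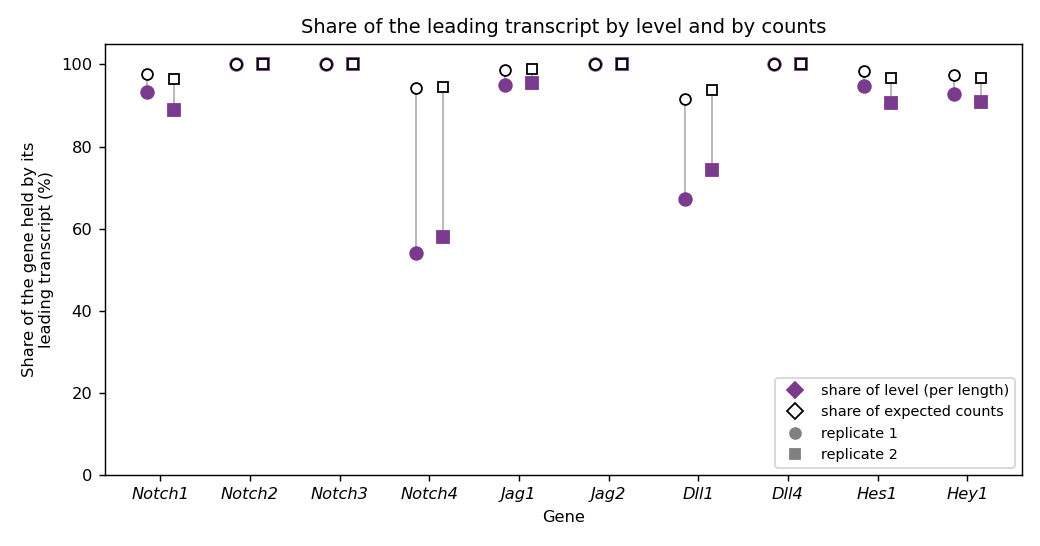
Share of each gene held by its leading transcript, in percent, as a share of the level per length (purple) and of the expected counts (white), with circles for replicate 1 and squares for replicate 2. The grey lines join both shares of 1 library and are long for Notch4 and Dll1, whose purple points lie between 54.1% and 74.3%.

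For Notch4, 5 short transcripts shared 20.3 expected counts in replicate 1 and 17.1 in replicate 2, yet made up 2.36 and 1.75 TPM of the gene's level. Notch4-210, a non-coding transcript of 619 nt, rested on 5.86 counts and 11.7% of the level in replicate 1, and on 13.3 counts and 32.5% in replicate 2. Notch4-205, a retained-intron transcript of 598 nt, rested on 8.44 counts and 17.5% in replicate 1, and on 2.64 counts and 6.75% in replicate 2. The leading share varied by 2.69 percentage points (SD, n = 2), while Notch4-210 was higher in replicate 2 and Notch4-205 in replicate 1, each on few counts and with no test.

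For Dll1, 4 short transcripts shared 22.2 counts in replicate 1 and 19.0 in replicate 2. Dll1-204, a retained-intron transcript of 751 nt, had 13.9 counts and 20.6% of the level in replicate 1, and 7.17 counts and 9.80% in replicate 2. Dll1-202, another retained-intron transcript, of 797 nt, had 4.68 counts and 6.50% in replicate 1, and 10.3 counts and 13.2% in replicate 2. A count of 0 in a library allows up to 3 counts. Dll1-206 had 0 and 1.54 counts, within that limit, while Dll1-203 had 3.59 and 0 counts and Hes1-202 had 4 and 0 counts, just above it, and none of these was tested. These floors and the intervals below cover counting error only.

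The short transcripts shown here overlap the leading one for most of their length. Of the bases of Notch4-210, 543 lie in coding exons of Notch4-201 and 76 do not. Of those of Notch4-205, 346 do and 252 do not. Dll1-204 shares 653 bases with exons of Dll1-201 and holds 98 of its own, and Dll1-202 shares 656 and holds 141. Hes1-203, with 2.74 and 15.4 counts, holds 66 of its own beside 340 in the coding exons of Hes1-201. The stretches are shown because their capitals are the bases in which each short transcript differs from the leading one. They are GENCODE M21 transcript sequences on the strand of the gene, with bases absent from the exons of the leading transcript in capitals and neighbouring coding bases shared with it in lower case. The capitals lie at chr17:34587041-34587116 for Notch4-210, chr17:34586275-34586526 for Notch4-205, chr17:15368036-15368133 for Dll1-204, chr17:15374960-15375100 for Dll1-202 and chr16:30066097-30066162 for Hes1-203, in the mm10 assembly.
Notch4-210: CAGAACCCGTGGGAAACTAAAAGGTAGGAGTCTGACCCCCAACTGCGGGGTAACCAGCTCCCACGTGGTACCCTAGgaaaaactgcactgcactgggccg
Notch4-205: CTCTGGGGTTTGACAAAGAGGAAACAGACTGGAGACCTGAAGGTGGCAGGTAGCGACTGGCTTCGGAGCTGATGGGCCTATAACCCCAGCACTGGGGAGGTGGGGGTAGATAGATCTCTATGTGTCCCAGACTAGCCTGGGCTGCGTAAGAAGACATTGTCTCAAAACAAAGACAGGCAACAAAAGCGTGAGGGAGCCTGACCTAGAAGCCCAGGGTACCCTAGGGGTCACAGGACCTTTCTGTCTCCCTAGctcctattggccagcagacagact
Dll1-204: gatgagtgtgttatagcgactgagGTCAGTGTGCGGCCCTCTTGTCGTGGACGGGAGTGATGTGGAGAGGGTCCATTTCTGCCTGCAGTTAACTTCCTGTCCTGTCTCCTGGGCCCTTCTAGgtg
Dll1-202: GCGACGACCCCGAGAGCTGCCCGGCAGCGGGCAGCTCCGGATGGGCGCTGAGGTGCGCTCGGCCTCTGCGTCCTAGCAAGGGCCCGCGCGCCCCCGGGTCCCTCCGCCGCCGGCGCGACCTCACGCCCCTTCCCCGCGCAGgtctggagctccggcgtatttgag
Hes1-203: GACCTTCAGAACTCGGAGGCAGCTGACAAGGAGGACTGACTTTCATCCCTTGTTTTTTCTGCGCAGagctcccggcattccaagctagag

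**Figure D3:**
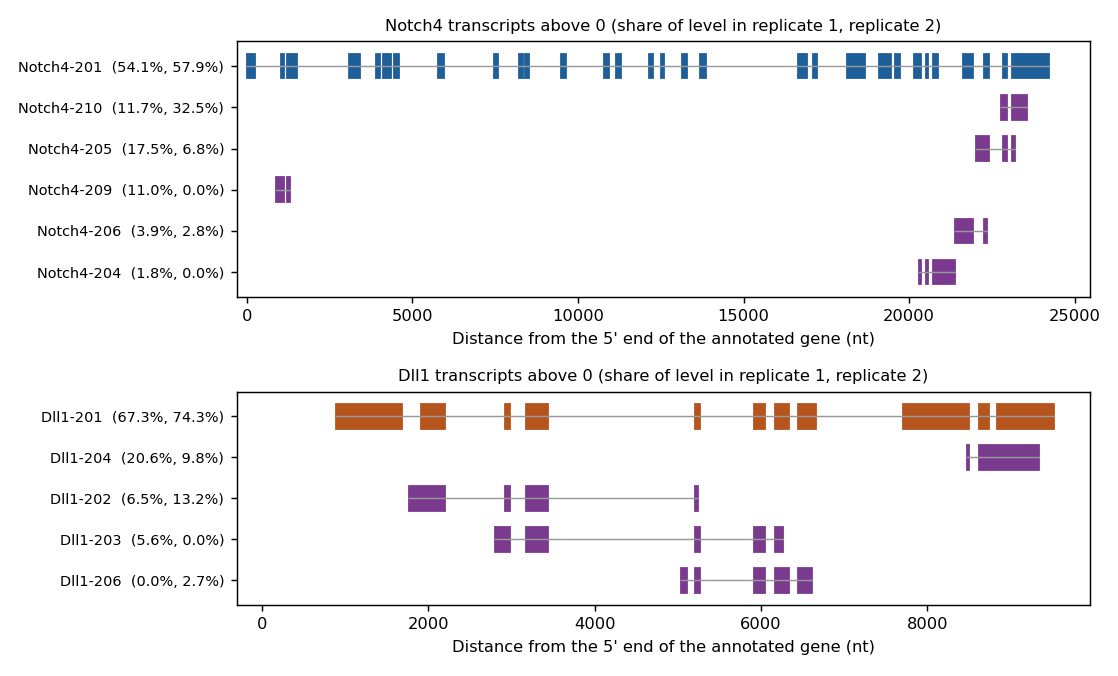
Exons (boxes) of the Notch4 and Dll1 transcripts above 0, against distance in nt from the 5′ end of the annotated gene, with the leading transcript on top and the share of the gene's level in replicate 1 and replicate 2 beside each name. Of the 5 short Notch4 transcripts, 4 lie in the 3′ part of the gene, and Dll1-204 lies at the 3′ end of Dll1.

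Taken by the leading transcript alone, the level of Notch4 was 2.79 and 2.41 TPM and that of Dll1 3.71 and 4.42 TPM. On that scale Notch4 fell below Jag2 and became the lowest member, and Dll1 overlapped both Dll4 and Jag2. The log2 ratio of Dll1 over Dll4 was 0.45 ± 0.03 by gene and -0.052 by leading transcript. The deposited posterior mean, another estimate of the same quantity, went the other way for these genes, at 7.59 and 6.23 TPM for Notch4, 6.43 and 7 TPM for Dll1 and 15.80 and 15.23 TPM for Notch1. For Notch1 and Notch4 the deposited TPM lay below the deposited interval around that mean in both libraries, for Notch2 it lay above it, and for the other 7 members it lay inside. Which level that interval has is not stated by the labels or headers.

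Some members overlap other genes. Gm17276, an antisense gene, spans 21024 nt of the Notch3 locus and had 18.5 and 28.3 expected counts. Gm13568 and 0610009E02Rik lie opposite the 3′ end of Notch1, with 76.0 and 66.7 counts and with 72.9 and 70.0 counts. A930024N18Rik overlaps the 5′ end of Dll1 with 7.79 and 3.47 counts, and Gm14207 that of Dll4 with 8 and 4 counts. Whether the counting used strand is not stated, so reads of such partners cannot be told apart from those of the members, and beside 2875 and 2626 counts of Notch3 or 1937 and 1889 of Notch1 they are few.

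The libraries were then compared gene by gene, with the log2 ratio of replicate 1 over replicate 2 after scaling to the total of Ensembl genes. An exact binomial test of the rounded counts, two-sided, with Benjamini-Hochberg adjustment over 18580 genes, compares these 2 libraries and covers counting error only. At an adjusted p under 0.05 it called 3 of the 10 members, where it called 16.4% of all genes tested and 20.8% of those within the members' range of counts. All 3 were higher in replicate 1. Of all genes tested, 3048 were called, and 1728 of these (9.3% of those tested) were higher in replicate 1. No member was called at 2-fold or more, where 1.85% of genes were. That share includes genes with far fewer counts than the members. With at least 100 counts summed, which every member had, 75 genes were called at 2-fold, against 343 with at least 10.

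Notch2 had 6529 counts in replicate 1 and 5760 in replicate 2, a log2 ratio of 0.20 (95% interval 0.15 to 0.25, exact binomial adjusted p = 8.6e-13). Notch3 had 2875 counts in replicate 1 and 2626 in replicate 2, a log2 ratio of 0.15 (0.07 to 0.23, exact binomial adjusted p = 0.0015). Jag1 had 2172 counts in replicate 1 and 1979 in replicate 2, a log2 ratio of 0.15 (0.07 to 0.24, exact binomial adjusted p = 0.0062). The difference amounted to 1.15-fold for Notch2 and 1.11-fold for Notch3 and Jag1. With the spread taken from the trend over all genes in the same 2 libraries, edgeR's exact test called none of the 3, each with an adjusted p of 1.

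The other 7 members did not pass the test. Notch4 (360 counts in replicate 1 and 312 in replicate 2) had the widest difference, a log2 ratio of 0.23 with an interval of 0.00 to 0.45. Jag2 (315 counts in replicate 1 and 286 in replicate 2) gave 0.16 with an interval of -0.08 to 0.40. Dll1, with 264 counts in replicate 1 and 310 in replicate 2, was at -0.21 with an interval of -0.45 to 0.03. Dll4, with 272 counts in replicate 1 and 305 in replicate 2, was at -0.14 with an interval of -0.39 to 0.10. Whether a difference of that size in the low members could be detected at this depth was not tested. Notch1, Hes1 and Hey1, with more counts, were at 0.06, -0.02 and 0.07. The median over the members was 0.11, beside 0.01 over all genes tested, with 7 members higher in replicate 1 and 3 higher in replicate 2.

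The direction depends on what is held equal. Scaling to the spike-ins moved the median of all genes by -0.52, and all 10 members were then lower in replicate 1, by log2 ratios between -0.74 for Dll1 and -0.30 for Notch4. That shift is the same for every gene, so differences between members within a library are as above.

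**Figure D4:**
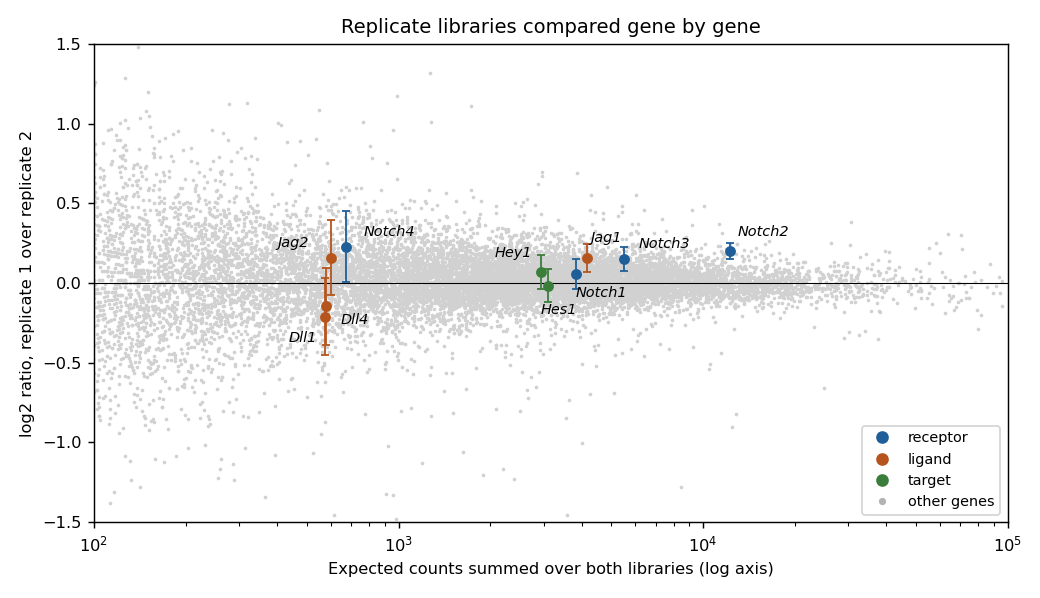
Log2 ratio of replicate 1 over replicate 2 against expected counts summed over both libraries (log axis), with the members in colour by role, their 95% counting intervals as bars and other genes in grey (genes beyond the axes are not drawn). All 10 members lie within 0.23 of 0, and Notch2, Notch3 and Jag1, the 3 that passed the test, lie between 0.15 and 0.20.

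The marker lists were read by the same counting test, which passed 27 of 75 markers (36%). It passed 16.4% of all genes and 20.8% of those within the members' range of counts. Neither set was matched to the markers in counts, so these shares are not a like comparison. By edgeR's exact test with the trended spread, Matn1, Acan, Nefl and Prph kept an adjusted p under 0.05, and the other called markers, mural and ectodermal ones included, did not. In the mural list, of vessel-wall cells, 4 of 8 genes reached 1 TPM in both libraries. These, Acta2, Pdgfrb, Cspg4 and Tagln, were called higher in replicate 1, as were 9.3% of all genes tested. Rgs5, Kcnj8, Abcc9 and Myh11 lay below 1 TPM in both libraries and were not called. No gene of the list was called higher in replicate 2. The summed level of all 8 was 188 TPM in replicate 1 and 170 TPM in replicate 2, from Acta2 at 122 and 114 TPM down to Myh11 at 0.17 TPM in both. In the ectodermal list 3 of 7 were called higher in replicate 1 (summed level 404 and 365 TPM), led by Krt14 at 133 and 122 TPM, with Cdh1 lowest at 12.6 and 11.4 TPM. In the chondrogenic list 4 of 7 were called higher in replicate 1 and 1 higher in replicate 2 (954 and 845 TPM), from Col2a1 at 453 and 369 TPM to Acan at 6.26 and 3.13 TPM. Acan and Matn1, at 25.3 TPM in replicate 1 and 10.2 TPM in replicate 2, passed 2-fold. The endothelial list had 2 of 13 called in each direction (293 and 290 TPM), with Sox17 lowest at 6.87 and 6.56 TPM. Of the neuronal and Schwann cell markers 4 of 8 were called higher in replicate 2 and none higher in replicate 1 (83.9 and 98.2 TPM), with Nefl and Prph past 2-fold. Over all 18580 genes tested, 3048 were called, 1728 of them higher in replicate 1 and the rest higher in replicate 2. The other 5 lists had at most 2 genes called in either direction. No marker of these lists was at 0, and their part in the differences of Notch2, Notch3 and Jag1 was not tested.

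The rest of the pathway was described from 62 further genes in 6 roles. Of them 53 (85.5%) had at least 1 TPM in both libraries. Among other ligands and ligand-like proteins, all 7 did, led by the matrix protein Mfap2 at 463 and 431 TPM, the non-canonical ligand Dlk1 at 122 and 102 TPM and the endothelial factor Egfl7, with Mfap5 lowest at 1.73 and 1.00 TPM. Of the proteases that cut the receptors, 9 of 10 did. The gamma-secretase subunits Psenen, at 114 and 120 TPM, and Ncstn, at 79.6 and 73.1 TPM, and the ectodomain protease Adam10, at 57.8 and 53.1 TPM, were highest, and the subunit Aph1c was lowest at 1.93 and 0.90 TPM.

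All 5 glycosyltransferases that modify the receptors passed 1 TPM. Poglut1, which adds glucose, had 71.2 and 68.4 TPM, and the fringe enzymes Rfng and Mfng had 34.7 and 30.5 TPM and 10.2 TPM in both. Pofut1, which adds the fucose that fringe enzymes extend, was lowest at 5.89 and 6.23 TPM. Of the genes of endocytosis and turnover 14 of 15 passed, led by the ubiquitin ligases Nedd4 at 690 and 687 TPM, Dtx3 at 137 and 126 TPM and Itch at 57.9 and 61.6 TPM, while Neurl1b had 0.48 and 0.34 TPM. Of the nuclear genes 13 of 14 passed, led by the corepressor components Hdac1 at 241 and 235 TPM and Ncor1 at 154 and 162 TPM and by the cofactor Snw1 at 124 and 119 TPM. Rbpj, named here because the pathway acts through it, had 41.8 and 40.8 TPM, and its paralogue Rbpjl was lowest at 0.45 and 0.34 TPM.

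The other HES and HEY genes and further targets were the role with the fewest members at 1 TPM, 5 of 11. Hes6, a HES protein that inhibits Hes1, had 100.02 and 106.79 TPM, the feedback inhibitor Nrarp 18.7 and 17.0 TPM and Heyl 2.62 and 2.39 TPM. Hey2, the close paralogue of Hey1, had 1.63 and 1.71 TPM and Hes5, the other classical Notch target of the family, 0.44 and 0.93 TPM, both named after their values were seen. Hes2, Hes3 and Helt were listed at 0 in both libraries. Hes1 and Hey1 were thus, with Hes6, the highest of the HES and HEY genes listed.

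**Figure D5:**
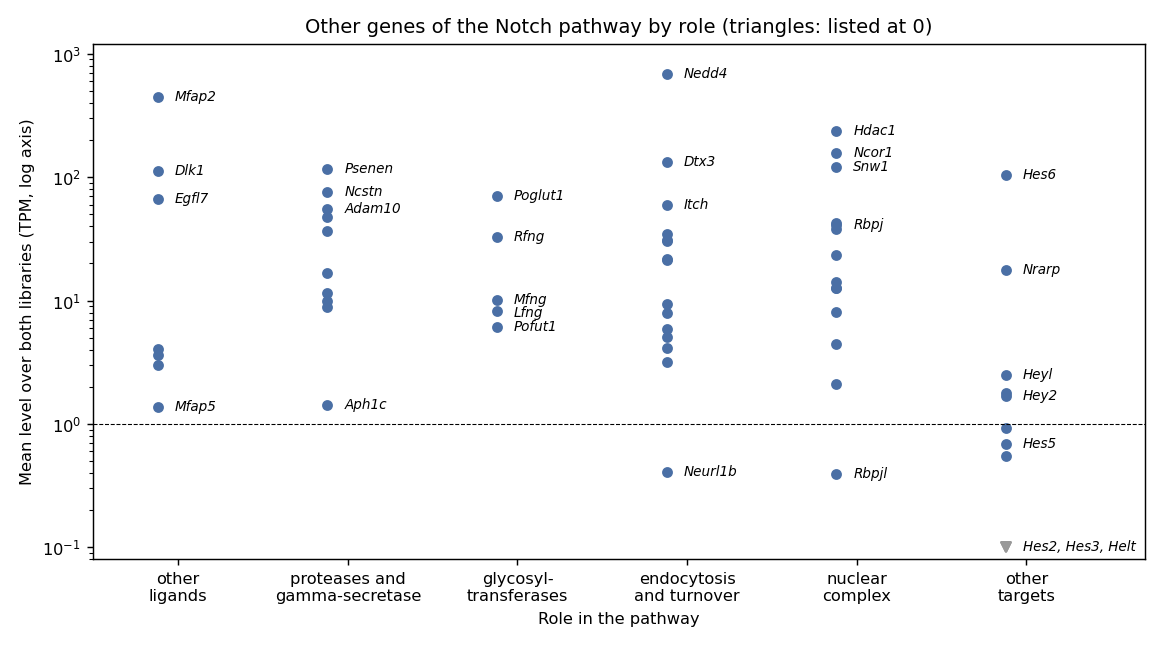
Mean level over both libraries in TPM (log axis) of 62 other pathway genes, 1 point per gene, by role, with a dashed line at 1 TPM and triangles, drawn at 0.1, for genes listed at 0. Targets other than Hes1 and Hey1 are spread from 0 to the 103 TPM of Hes6, while 13 of 14 nuclear genes lie above the line.

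Of 59 pathway genes with enough counts for the test between the libraries, 13 (22.0%) were called, 9 higher in replicate 1 and 4 higher in replicate 2, and 0 at 2-fold. That is beside the 16.4% of all genes and the 20.8% of those within the members' range of counts given above. edgeR's exact test called 0 of them.

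Promoter windows from RefSeq (build GRCm38.p6, 250 bases before to 50 after each start) were found for 8 of the 10 members, 9 windows in all. Hes1 and Hey1 were not in the table. None of the 9 windows held the core of the RBPJ motif, TGGGAA on either strand, which 25.6% of all 32851 windows held. None held the E-box CACGTG, the same on both strands, which 7.15% held. The motifs can share the letters TG, or CA on the other strand. No match says only that these letters are not in these windows. The GC content of the members' windows ranged from 55.7% for Jag1 to 86.0% for Jag2. Windows were found for 47 of the 62 other pathway genes, and 21 of these 66 windows (31.8%) held the core. Of the target role, Heyl, Bhlhe40, Hes2 and Hes3 had no window. Hes6 (2 windows), Nrarp and Bhlhe41 had windows without the core, and Hes5, Hey2, Hes7 and Helt had windows with it. The matches are shown, each as 30 bases on the strand of the gene with the core in capitals, TTCCCA where it lies on the opposite strand. The stretches lie at chr4:154960685-154960714 and chr4:154960829-154960858 (Hes5, plus strand), chr10:30842973-30843002 and chr10:30842769-30842798 (Hey2, minus strand), chr11:69120261-69120290 (Hes7, plus strand) and chr8:46294712-46294741 (Helt, minus strand).
Hes5, first: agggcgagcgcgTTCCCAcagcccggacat
Hes5, second: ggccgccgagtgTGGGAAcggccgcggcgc
Hey2, first: tgcgcggtggcaTTCCCAcgcctctgccaa
Hey2, second: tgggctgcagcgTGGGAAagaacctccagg
Hes7: tcctcccctcacTTCCCAcatttggggcta
Helt: gtgagaaaagccTGGGAAcaaacggggcgc

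Among these, Hes7 had 0.47 and 0.62 TPM; the levels of the others are given above. A match is a description of the letters and not of a site in use.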

How the data were processed

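The 10 genes, the pathway lists and the marker lists were chosen with earlier results of these data known. The deposited README files name the mm10 assembly and the GENCODE M4 annotation. Aligner, quantifier and strand setting: not given in the sources used here. Per the file headers, the deposited gene and transcript tables hold expected counts, which are estimated and need not be whole. The deposited TPM and FPKM values are scaled by length and depth, the deposited percent values give each transcript's share of its gene, and the deposited interval bounds, treated as a signal, surround the posterior mean TPM. Names, coordinates and transcript sequences came from GENCODE M21 by identifier without version (42462 of 43346 genes matched). Expected counts were rounded, and the exact binomial test ran on the 18580 genes whose counts summed to 10 or more. It was tried on simulated counts that held counting error alone, the error it assumes. That trial does not cover the wider spread of the real libraries. The libraries differed by more than sampling noise (chi-square of 6.61 for each degree of freedom, 16995 genes) and count as separate samples. A quasi-likelihood fit in edgeR needs a contrast between groups and was not run; edgeR 4.0.16 (exact test, TMM) and DESeq2 1.42.0 (size factors) served as alternatives, in R 4.3.3, with scipy 1.17.1 for the rest. The text names all 10 members and, of each pathway list, the 3 highest and the lowest by mean TPM. It names the highest and the lowest marker of the mesenchymal, mural, ectodermal, chondrogenic and endothelial lists. Other markers are named for their level or test result. The arterial, apical ridge, myogenic and macrophage lists were not described by gene. The levels of the leading transcript alone, edgeR's gene-wise spread and the counts of detected genes in 1 library were alternatives chosen after seeing the data.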

Additional observations from a re-analysis of the deposited data

How the results depend on the processing

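All 10 members stayed at or above 1 TPM by the posterior mean and in each library alone, and 7 reached 5 TPM. Of 292 alternative values for 49 results, 208 were labelled unchanged and 11 reversed. Unchanged means the same direction and side of the threshold, or a move within the spread between libraries. For counts it means a count of similar size, so 7 members at 5 TPM beside 10 at 1 TPM is among the 208. Some of the 208 were fixed in advance. Leaving out 1 of 2 libraries cannot move a level, ratio or share beyond that spread. A count minimum cannot alter a member's replicate ratio. In every case below the cause was not tested. Overlapping neighbours in the order numbered 2, against 1 by posterior mean and 4 by leading transcript. Members with a leading share of at least 90% numbered 7, against 4 by posterior mean. The log2 ratio of receptors over ligands (0.92) was 1.00 by posterior mean and 1.92 without length scaling. That of Jagged over Delta-like ligands (1.32) was 1.12, 2.05 and, by leading transcript, 1.53. Dll1 over Dll4 (0.45) reversed to -0.010 without length scaling and -0.052 by leading transcript. Dll4 over Notch4 (-0.14) reversed to 0.70 by leading transcript and to 0.091 without replicate 1.

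Of 18580 genes, the binomial test called 3048, and scaling by spike-ins called 13572. edgeR's exact test called 136 with the trended spread (772 at an unadjusted p under 0.05) and 0 with the gene-wise spread (173 at an unadjusted p under 0.05). The gene-wise count is void, since with 1 library a side each gene's own difference sets its spread. At 2-fold the count was 343, against 1241 by spike-ins, 79 by edgeR's trended spread and 75 with at least 100 counts. Members called numbered 3, against 10 by spike-ins and 0 by edgeR's trended spread (0 members at an unadjusted p under 0.05). Other pathway genes called numbered 13, against 49 by spike-ins and 0 by edgeR's trended spread. Scaled by spike-ins, the replicate log2 ratio reversed to -0.47 for Notch1, -0.32 for Notch2, -0.37 for Notch3, -0.30 for Notch4, -0.37 for Jag1, -0.36 for Jag2 and -0.45 for Hey1. The low members Dll1, Dll4, Jag2 and Notch4 held 264 to 360 counts in each library, and the part of depth in their results was not tested. No paired analysis was possible because the study holds 1 group.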
